A study of Mus musculus with 9 samples.

Results

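Cell cycle and DNA replication genes were followed through 9 RNA-seq libraries of a mouse pancreatic cancer cell line with and without the palmitoyltransferase gene Zdhhc20. The set holds 57 genes that were listed by symbol and matched to the Ensembl identifiers of the count table, which has 54838 identifiers in all. The list was drawn up by function, with earlier results of these data known. It is divided here by role into 15 genes of G1 control (D cyclins and their kinases, kinase inhibitors, the RB and E2F families), 21 genes of the G1/S transition and DNA replication, and 21 genes of G2 and mitosis (G2/M). Of the 57 genes, 56 passed the filter on low counts that left 13153 genes for testing. The exception was Cdkn1c, an inhibitor of cyclin-dependent kinases, which held 2 counts over the 9 libraries. Those were 1 in a control clone library and 1 in a parental library, and the 7 libraries at 0 allow up to 3 counts each, which is 0.146 to 0.182 CPM (counts scaled to a library total of 1000000).

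The libraries were made with a kit for mRNA (KAPA mRNA HyperPrep) from total RNA of untreated cultures of PDA530 Met, an established line that came from a liver metastasis in a male of the KPC mouse model of pancreatic ductal adenocarcinoma. The 3 groups of 3 libraries were a Zdhhc20 KO single-cell clone made with CRISPR/Cas9 (clone E4, the KO clone), an unedited clone from a single cell exposed to the same guide RNAs (clone C5, the control clone), and the parental cells from which both clones derive. All groups share the KPC background and a mixed 129/SvJae/C57Bl/6 strain background. The labels call the libraries of a group biological replicates and do not say whether they came from separate cultures on separate days, so p-values measure the spread between these libraries. Each clone is 1 clone, so an effect of the knockout and a difference between clones cannot be told apart.

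A dividing cell passes the G1 restriction point when D-type cyclins with Cdk4 or Cdk6, and then cyclin E with Cdk2, phosphorylate RB proteins and release E2F transcription factors. E2F switches on the genes for origin licensing (Cdc6, Cdt1 and the Mcm helicase), for nucleotide supply and for the replication machinery, so these transcripts rise together at the G1/S border. Genes for entry into and passage through mitosis (cyclin B, Aurora and Polo kinases, kinetochore and spindle proteins) are held back until G2 by the DREAM complex, which binds the CHR element, and are activated later by B-MYB and FOXM1 at promoters that often carry CCAAT boxes. Bulk RNA averages over cells in every phase, so fewer cells in a phase and less RNA per cell cannot be told apart in any of the differences below.

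RefSeq promoter windows (build GRCm38.p6) were matched by symbol for 44 of the 57 genes. The 250 bases before the gene start were searched on both strands for an E2F site (the letters TTTGGCGC, TTTCCCGC, TTTGGCGG, TTTCGCGC or TTTGCCGC), the CHR element (TTTGAA) and the CCAAT box (CCAAT). E2F letters stood in 7 of 17 G1/S and replication promoters (41.2%), 1 of 16 G2/M promoters (6.25%) and 2 of 11 G1 control promoters (18.2%), beside 2.63% of the 27025 genes with a window and 4.82% of the tested genes with one. CHR and CCAAT letters stood together in 6 of 16 G2/M promoters (37.5%), against 2 of 11 G1 control promoters (18.2%) and 11.8% of G1/S and replication promoters. The share was 7.34% of all genes with a window and 6.06% of the tested genes with one. CCAAT letters, with or without the CHR element, were in 15 of 16 G2/M, 13 of 17 G1/S and replication and 5 of 11 G1 control promoters, beside 37.5% of all genes with a window. A match is a description of letters in the window and says nothing of binding.

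The 170 bases before the start are printed for the members on which the results below turn, 5′ to 3′ on the strand of the gene, with every motif match in capitals. The pair for Mcm6 (a subunit of the Mcm helicase, chr1:128359706-128359875, minus strand) and Pola1 (the catalytic subunit of DNA polymerase alpha, chrX:93632156-93632325, minus strand) holds E2F letters. Ccnb2 (cyclin B2, chr9:70421555-70421724, minus strand) and Kif11 (the kinesin motor that separates spindle poles, chr19:37376212-37376381, plus strand) hold CHR and CCAAT letters. Rrm2 (the small subunit of ribonucleotide reductase, chr12:24708084-24708253, plus strand) holds CCAAT letters and none of the E2F or CHR letters searched.
Mcm6: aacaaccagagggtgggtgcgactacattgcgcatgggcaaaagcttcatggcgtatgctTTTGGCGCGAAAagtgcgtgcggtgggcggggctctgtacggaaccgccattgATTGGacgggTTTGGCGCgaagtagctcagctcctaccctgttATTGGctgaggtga
Pola1: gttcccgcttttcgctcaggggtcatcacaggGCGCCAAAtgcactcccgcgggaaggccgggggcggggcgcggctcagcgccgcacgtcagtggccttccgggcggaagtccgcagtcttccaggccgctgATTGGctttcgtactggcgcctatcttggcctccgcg
Rrm2: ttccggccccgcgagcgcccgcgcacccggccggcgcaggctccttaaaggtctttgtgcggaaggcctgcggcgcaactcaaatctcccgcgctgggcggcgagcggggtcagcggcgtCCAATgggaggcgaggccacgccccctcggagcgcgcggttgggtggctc
Ccnb2: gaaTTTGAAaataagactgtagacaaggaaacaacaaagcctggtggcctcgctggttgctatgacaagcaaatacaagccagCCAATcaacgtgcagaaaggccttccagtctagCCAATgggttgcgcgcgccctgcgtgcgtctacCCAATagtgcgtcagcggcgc
Kif11: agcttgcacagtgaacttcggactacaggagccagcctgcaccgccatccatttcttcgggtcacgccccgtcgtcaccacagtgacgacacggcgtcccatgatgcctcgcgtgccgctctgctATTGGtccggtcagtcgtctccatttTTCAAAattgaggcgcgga
In Mcm6 the E2F letters lay at bases 110 to 103, 106 to 99 and 47 to 40 before the start, of which the first 2 overlap on opposite strands. In Kif11 the CHR letters lay at bases 19 to 14, and in Ccnb2 they lay at bases 167 to 162 with 3 CCAAT boxes between bases 87 and 17.

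Values below are CPM after TMM scaling, a correction of library size for composition. Differences are log2 fold changes with their standard error (SE) from the quasi-likelihood test of edgeR, fitted over all 9 libraries, and a gene was called when its Benjamini-Hochberg adjusted p over the 13153 tested genes was under 0.05. Library totals ran from 16525869 to 23192701 counts. Zdhhc20 was at 37.5, 33.9 and 42.5 CPM in the KO clone, 123, 85.8 and 120 in the control clone and 75.3, 81.2 and 90.7 in the parental cells, and was called lower in the KO clone against both other groups (log2 fold changes of -1.53 and -1.12). Of the 10 epithelial and ductal markers checked, Krt8, Krt18, Krt7 and Cdh1 were at 356 CPM or more in every library, whereas Epcam stayed at or below 0.635 CPM and Cldn4 at or below 2.04. The summed level of these markers was 4349 to 4477 CPM in the KO clone, 7040 to 9408 in the control clone and 6738 to 8211 in the parental cells, and its part in the differences below was not tested. The fibroblast, immune, endothelial, hepatocyte and acinar lists summed to at most 7.66 CPM in any library, with markers such as Col1a2, Thy1, Dcn, Lum, Adgre1, Cd3e, Serpina1a, Cpa1 and Ptf1a at 0 throughout.

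Replicate 3 of the control clone stood apart in both later role groups. It was the lowest of the 3 control libraries for 21 of 21 G1/S and replication members and for 21 of 21 G2/M members, which was so for 37.2% of all tested genes. Over all 9 libraries it was the lowest for 19 of 21 members in each of these groups, against 20.7% of all tested genes. Its log2 ratio to the mean of control replicates 1 and 2 had a median of -1.03 over the G2/M members (range -1.33 to -0.67), -0.60 over the G1/S and replication members (range -1.05 to -0.24), -0.17 over the G1 control members and 0.01 over all tested genes. Its total of 19425946 counts lay inside the range of the other libraries. The mitotic kinesin Kif20a shows the size of the gap, with 494 and 489 CPM in control replicates 1 and 2 and 195 in replicate 3. Topoisomerase Top2a, which untangles sister chromatids, was at 829, 1159 and 500 CPM in these libraries. Ccnd2 went the other way, at 661, 604 and 1203 CPM. Counts of calls and medians of the G1/S and replication and of the G2/M members that rest on the control clone are therefore given with and without this library. Unless a fit is named, called and not called refer to edgeR with all 9 libraries.

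The level of each role group in a library was taken as the mean over its members of the log2 CPM, after subtracting each gene's mean over the 9 libraries. For the G1/S and replication members it was 0.15, 0.27 and 0.14 in the KO clone, -0.22, 0.05 and -0.71 in the control clone, and 0.17, 0.14 and -0.00 in the parental cells. All 3 KO libraries lay above all 3 control libraries, and the parental range overlapped both. For the G2/M members it was -0.01 in each KO library, 0.23, 0.34 and -0.76 in the control clone, and 0.04, 0.06 and 0.13 in the parental cells. Here the KO and parental libraries lay close together, control replicates 1 and 2 lay above them and control replicate 3 below.

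**Figure D1:**
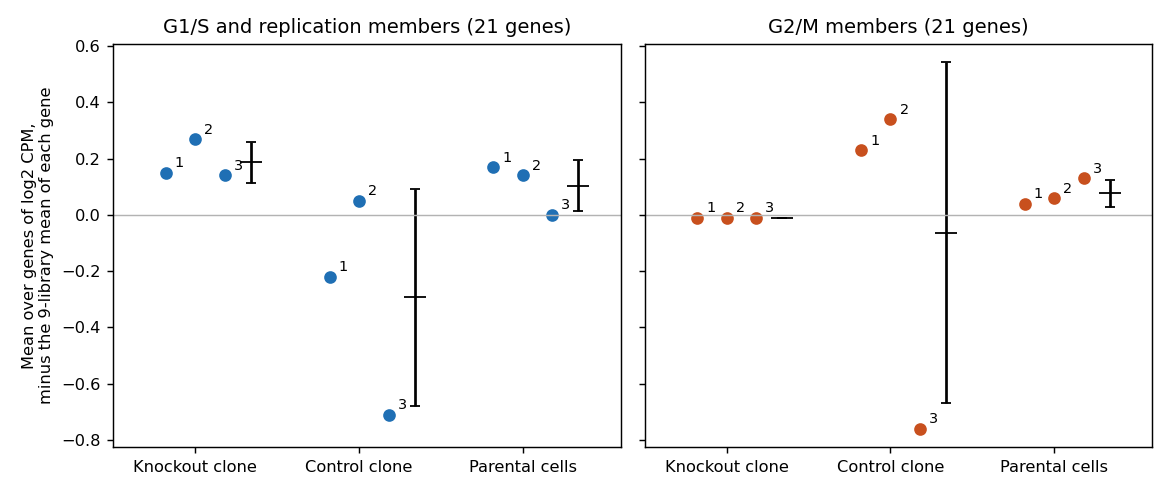
Mean centred log2 CPM of the members of each role group (vertical axis) in each of the 9 libraries, by group (horizontal axis), with 1 numbered point per library and the group's mean and SD beside it. Control replicate 3 sits at -0.71 for the G1/S and replication genes and at -0.76 for the G2/M genes, below every other library.

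The set divided by role in the comparison of the KO clone with the control clone. Of the 56 tested members 20 were called, 13 higher and 7 lower in the KO clone, which is 35.7% against 42.9% of all tested genes. Among the G1/S and replication members 10 of 21 were higher (47.6%) and 1 was lower, where 18.7% of all tested genes were higher and 24.2% lower, and 20 of the 21 had a positive log2 fold change. Among the G2/M members edgeR called none of 21 higher (1 had an unadjusted p under 0.05, and DESeq2 and limma called 1 each) and 2 lower, Ccnb2 and Cenpa. The median log2 fold change was 0.51 over the G1/S and replication members, -0.06 over the G2/M members, 0.08 over the G1 control members and -0.02 over all tested genes. No test was made of the difference between role groups, whose members share libraries.

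Leaving out the control library that stood apart changed the G2/M count and kept the G1/S calls. Without control replicate 3, 10 G1/S and replication members were higher, and 10 were called in both fits, with a median of 0.32, beside 20.6% of the 13322 genes then tested. Without it 11 G2/M members were lower in the KO clone by edgeR, with a median of -0.35, where 24.9% of all genes were lower. Leaving out control replicate 2 gave 18 higher and 1 lower G1/S and replication members (median 0.70) and 3 higher and 2 lower G2/M members (median 0.15), beside 25.2% higher and 28.3% lower of all genes tested then, so the sign of the G2/M median in this comparison changed with which control library was left out. Over all 56 tested members more were called without control replicate 2 or 3 than with all 9 libraries. The share of members called was above that of all genes in each of these fits, and below it with all 9 libraries. With the parental libraries left out of the fit, 15 of the 56 tested members were called, beside 34.1% of all genes. These were 8 higher and 1 lower among the G1/S and replication members, 1 lower G2/M member (Ccnb2) and 5 G1 control members, beside 15.6% higher and 18.5% lower of all genes. The 14 tested G1 control members gave 3 higher and 4 lower with all 9 libraries, and 3 higher and 5 lower without control replicate 3 (median 0.10).

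**Figure D2:**
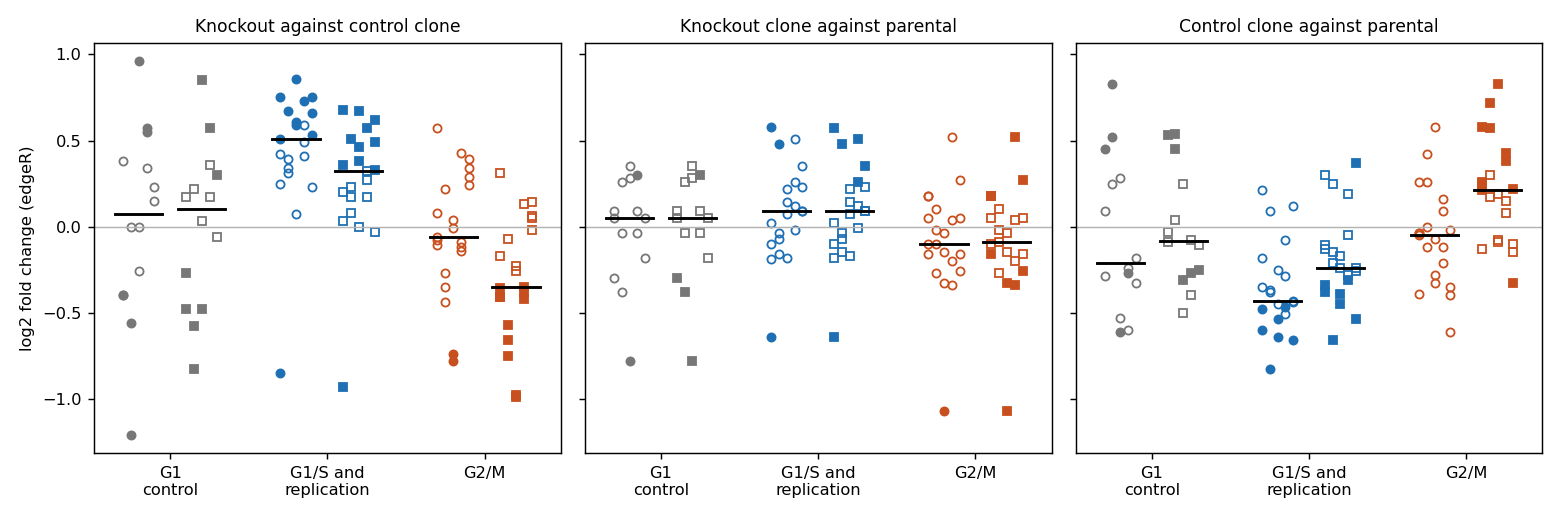
Log2 fold change (vertical axis) of each tested member by role group (horizontal axis), 1 panel per comparison, with circles for the fit of all 9 libraries, squares for the fit without control replicate 3, filled symbols for members called by edgeR at an adjusted p under 0.05 and black bars at the medians. The G1/S and replication circles lie mostly above 0 in the KO clone relative to the control clone (median 0.51) and mostly below 0 in the control clone relative to parental cells (median -0.43).

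The control clone set beside the parental cells, a comparison that shares libraries with the other 2, gave 12 calls among the 56 tested members, 3 higher and 9 lower in the control clone. That is 21.4%, and 21.4% of all tested genes were called. Of the 21 G1/S and replication members edgeR called 7 lower (33.3%) and none higher, nor did DESeq2, limma or an unadjusted p under 0.05 give any higher, where 11.0% of all tested genes were lower and 10.4% higher, and 18 of 21 had a negative log2 fold change with a median of -0.43. None of the 21 G2/M members was called by edgeR in either direction (median -0.05). In each direction 1 had an unadjusted p under 0.05 and 1 was called by DESeq2, and limma called none. Without control replicate 3 the same 7 G1/S and replication members were lower and 1 was higher (Cdt1), with a median of -0.24. The G2/M members then gave 10 higher and 1 lower (median 0.21), beside 14.9% higher and 15.9% lower of all genes tested in that fit. Without control replicate 2 the counts were 16 lower G1/S and replication members and 4 lower G2/M members (median -0.25), beside 14.9% of all genes lower. The calls also rested on the parental libraries: without parental replicate 1, 2 or 3 the lower G1/S and replication members numbered 2, 2 and 4, beside 6.18%, 6.46% and 7.51% of all genes tested in those fits. Without control replicate 1 they numbered 4, beside 7.98%. With the KO libraries left out of the fit 2 were lower, beside 5.99% of all genes.

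Between the KO clone and the parental cells fewer members were called with all 9 libraries, and more in fits of the compared groups alone. Of the 56 tested members 6 were called (10.7%), 3 higher (Rb1, Ccne1 and Ccne2) and 3 lower (Rrm2, Ccnb2 and Cdkn2c), against 31.4% of all tested genes. The median log2 fold change was 0.09 over the G1/S and replication members and -0.10 over the G2/M members. The number of calls changed with the libraries that entered the fit. Without control replicate 3 it was 18, 9 in each direction, beside 42.7% of all genes tested. Without control replicate 2 it was 11, beside 42.2%, and in a fit of the KO and parental libraries alone it was 28, 15 higher and 13 lower, beside 53.5% of all genes tested there. Fits of 2 groups alone gave 15 for the KO clone and the control clone, beside 34.1%, and 3 for the control clone and parental cells, beside 11.8%, so the order of the comparisons by calls depended on the fit. Without KO replicate 1, 2 or 3 it was 4, 4 and 3, beside 19.6%, 22.2% and 20.8% of all genes, and without parental replicate 2 or 3 it was 3 and 4, beside 20.8% and 18.7%. Rrm2, Ccnb2 and Cdkn2c were called lower without any 1 of the KO or parental libraries (adjusted p up to 0.0462).

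Among the G1 control members with all 9 libraries, a D cyclin, of the class that opens the restriction point, gave the largest difference. This was Ccnd2 in the KO clone relative to the control clone. Without control replicate 3, E2f7 (0.85) slightly exceeded Ccnd2 (-0.83) there. Between the KO clone and the parental cells the largest was Cdkn2c (-0.78). Ccnd2 (cyclin D2, chr6:127125162-127152193) was at 367, 340 and 364 CPM in the KO clone, 661, 604 and 1203 in the control clone and 444, 428 and 518 in the parental cells. The KO libraries were the lowest and the control libraries the highest, and the groups did not overlap. Relative to the control clone the KO clone differed by -1.21 on the log2 scale (SE 0.23, adjusted p = 0.00241), and by -0.83 without control replicate 3. The control clone lay 0.83 above the parental cells (SE 0.22, adjusted p = 0.0287), and 0.45 without control replicate 3. This call was lost without KO replicate 1 or 2 or any 1 of the parental replicates (adjusted p = 0.0502 to 0.107), and when only these groups entered the fit (adjusted p = 0.0785). Against the parental cells the KO value was -0.38 (SE 0.22, adjusted p = 0.227), and this became a call without control replicate 3 (adjusted p = 0.00562). All tested genes on chromosome 6 had a median of -0.16 in the KO clone relative to the control clone.

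Ccnd1 (cyclin D1) was at 705, 661 and 717 CPM in the KO clone, 891, 1045 and 804 in the control clone and 692, 664 and 651 in the parental cells. The control clone was high, with a log2 fold change of -0.40 for the KO clone against it (SE 0.10) and 0.45 for the control clone relative to parental cells (SE 0.10), both called. They were -0.48 and 0.53 without control replicate 3. Ccnd3 was not called in any comparison. Per kilobase of exon, the scale on which genes can be compared with each other, the mean Ccnd1 level in the KO clone was 147 ± 6.32 CPM per kb (SD, n = 3). Ccnd2 followed at 37.9 ± 1.58 and Ccnd3 at 9.24 ± 0.428. That order held in the control clone (194 ± 26.0, 87.4 ± 35.1 and 9.26 ± 1.18) and in the parental cells (142 ± 4.43, 49.2 ± 5.10 and 7.62 ± 0.732). Of the kinases, Cdk4 was at 95.6 ± 1.35 CPM per kb in the KO clone and Cdk6 at 11.7 ± 0.136, and neither was called in any comparison with all 9 libraries. In the fit without control replicate 3, Cdk6 was higher in the KO clone than in the control clone (0.30, adjusted p = 0.00966) and lower in the control clone than in parental cells (-0.25, adjusted p = 0.0311).

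Of the kinase inhibitors 3 were tested, and edgeR with all 9 libraries called 1 lower in each KO comparison, Cdkn1b relative to the control clone and Cdkn2c relative to parental cells. In the fit without control replicate 3, both were lower in each. Cdkn2c (p18INK4c, an inhibitor of Cdk4 and Cdk6, chr4) was at 20.1, 19.5 and 18.4 CPM in the KO clone, 27.6, 26.1 and 15.4 in the control clone and 32.3, 33.7 and 33.8 in the parental cells. The KO libraries lay well below the parental ones, and the control libraries lay on both sides of the KO range, with replicate 3 below it. Its log2 fold change was -0.78 relative to parental cells (SE 0.18, adjusted p = 0.0109) and -0.26 relative to the control clone (SE 0.18, adjusted p = 0.29), which became -0.48 and a call without control replicate 3 (adjusted p = 0.00134). Cdkn1b (p27Kip1) was at 105, 101 and 106 CPM in the KO clone and 139, 112 and 160 in the control clone, and was lower by edgeR (log2 fold change -0.40, adjusted p = 0.0221). It was -0.27 without control replicate 3, and the call was lost without control replicate 1 or any 1 of the KO replicates (adjusted p = 0.0596 to 0.0858). Its value relative to parental cells was -0.30 (adjusted p = 0.0771), which was called without control replicate 3 (adjusted p = 0.0182). Cdkn2b (p15INK4b) was at 41.9 to 48.8 CPM in the KO clone, 32.7 to 58.9 in the control clone and 37.9 to 39.4 in the parental cells, and was not called.

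Among the RB and E2F genes, Rb1 was the member called in both KO comparisons. Rb1 (the retinoblastoma protein, chr14) was at 62.8, 62.8 and 64.8 CPM in the KO clone, 39.3, 46.4 and 43.0 in the control clone and 50.8, 50.7 and 53.3 in the parental cells. The 3 groups did not overlap, with the parental cells between the 2 clones. The KO clone was higher by 0.57 on the log2 scale than the control clone (SE 0.08, adjusted p = 0.000473) and by 0.30 than the parental cells (SE 0.08, adjusted p = 0.0178), and the latter lost its call without KO replicate 3, without parental replicate 1 or 2 and with no filter on low counts (adjusted p = 0.0527 to 0.0672). Rb1 shares chromosome 14 with Zdhhc20, and all tested genes there had medians of 0.19 and 0.21 in these 2 comparisons. It also overlaps Lpar6 and Rcbtb2 on the other strand, whose reads could be mixed with its own because the counting is not stated to use strand. The same holds for other members described here, among them Ccnd1, Ccnd2, E2f7, E2f8, Ccne2, Mcm7, Pola1, Cdc20, Kif20a and Kif11, which overlap genes on the other strand.

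The repressors E2f7 and E2f8, which are E2F targets themselves, were higher in the KO clone than in the control clone. E2f7 was at 61.2, 61.8 and 55.0 CPM against 25.4, 40.9 and 25.6, with 52.9, 46.7 and 40.2 in the parental cells. Its log2 fold change relative to the control clone was 0.96 (SE 0.18, adjusted p = 0.00262), and 0.85 without control replicate 3. E2f8 had a log2 fold change of 0.55 (adjusted p = 0.0478), and this call was lost in 8 of the 9 fits that left out 1 library (adjusted p = 0.0537 to 0.132); it was kept without control replicate 2 and the value was 0.36 without control replicate 3. The activator E2f2 was lower in the KO clone than in the control clone, at 12.7, 15.4 and 11.2 CPM against 16.6, 22.5 and 18.7 (log2 fold change -0.56, SE 0.15), with 13.8, 13.0 and 13.7 in the parental cells. It was -0.58 without control replicate 3, and the call was lost without KO replicate 3 (adjusted p = 0.0562). Relative to parental cells E2f2 was higher in the control clone by 0.52 (adjusted p = 0.0342), a call lost without control replicate 2, KO replicate 1 or any 1 of the parental replicates (adjusted p = 0.0554 to 0.113), and its value in the KO clone was -0.04. E2f1 and Rbl1 were not called in any comparison.

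Cyclin E leads the G1/S group in order of action. Ccne1 was at 23.9, 27.5 and 25.0 CPM in the KO clone, 13.7, 18.3 and 13.5 in the control clone and 20.8, 17.0 and 13.4 in the parental cells. All KO libraries lay above all others, and the control and parental libraries overlapped. Its log2 fold change in the KO clone was 0.75 over the control clone (SE 0.17, adjusted p = 0.00691) and 0.58 over the parental cells (SE 0.17, adjusted p = 0.0311), and 0.68 and 0.57 without control replicate 3. The second value missed the threshold without any 1 of the KO replicates, or without parental replicate 2 or 3 (adjusted p = 0.0611 to 0.101). Ccne2 was at 62.1, 70.9 and 62.1 CPM in the KO clone, 51.9, 59.0 and 38.3 in the control clone and 54.5, 44.6 and 40.5 in the parental cells. It was higher in the KO clone than in the parental cells (log2 fold change 0.48, adjusted p = 0.0477) and not called relative to the control clone (0.39, adjusted p = 0.0785, and 0.23 without control replicate 3, adjusted p = 0.166). The call was lost without control replicate 1, any 1 of the KO replicates or parental replicate 2 or 3 (adjusted p = 0.0664 to 0.164). Their partner kinase Cdk2 was not called in any comparison.

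The Mcm2 to Mcm7 subunits form the ring that licenses origins and unwinds DNA. All 6 had a positive log2 fold change in the KO clone relative to the control clone (median 0.60, and 0.42 without control replicate 3), and Mcm2, Mcm4, Mcm6 and Mcm7 were called higher. The Mcm2 call was lost without control replicate 1 or any 1 of the KO replicates (adjusted p = 0.0589 to 0.0795). All 6 were negative in the control clone relative to parental cells (median -0.57, and -0.39 without control replicate 3), and Mcm4, Mcm5, Mcm6 and Mcm7 were called lower. Of these the Mcm5 call was kept in 2 of the 9 fits that left out 1 library, those without control replicate 2 or 3, and the Mcm7 call was lost without parental replicate 1 or 2 (adjusted p = 0.0539 and 0.056). None of the 6 was called by edgeR between the KO clone and the parental cells (median 0.03, lowest adjusted p = 0.439), and none had an unadjusted p under 0.05 or a call by DESeq2 or limma. The lowest adjusted p of the 6 was 0.0982 when control replicate 3 was left out.

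Mcm6 (chr1:128331590-128359664) was at 248, 274 and 239 CPM in the KO clone, 178, 179 and 120 in the control clone and 298, 282 and 267 in the parental cells. All 3 control libraries lay far below the other 6, and replicates 1 and 2 were nearly equal. The KO clone exceeded the control clone by 0.67 on the log2 scale (SE 0.14, adjusted p = 0.0045) and the control clone had -0.83 relative to parental cells (SE 0.14, adjusted p = 0.00408). Both calls were kept in every alternative run. They were 0.51 and -0.66 without control replicate 3. Mcm4 gave 305, 310 and 299 CPM in the KO clone, 179, 216 and 149 in the control clone and 314, 295 and 252 in the parental cells. Again no control library reached any of the other 6. Chromosome 1, where Mcm6 lies, had a median of 0.04 and -0.17 over its tested genes in the same 2 comparisons.

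Other licensing genes showed smaller or more scattered differences. Gmnn (geminin, which blocks relicensing by binding Cdt1) was at 55.1, 57.4 and 60.0 CPM in the KO clone, 45.6, 44.1 and 31.8 in the control clone and 56.5, 57.6 and 55.9 in the parental cells. The control clone was low in all 3 libraries, and the other groups were level. Its log2 fold changes were 0.51 for the KO clone relative to the control clone (SE 0.12) and -0.48 for the control clone relative to parental cells (SE 0.12), both called. They were 0.36 and -0.34 without control replicate 3, and the second call was lost without any 1 of the parental replicates (adjusted p = 0.0557 to 0.0691). All tested genes on its chromosome, 13, had medians of 0.33 and -0.20 in these comparisons, and their part in the Gmnn difference was not tested. The loading factors Cdc6 and Cdt1, and the helicase partners Cdc45 and Gins2, were not called in any comparison with all 9 libraries, with Cdc6 at 39.2, 59.8 and 23.9 CPM in the control clone. In the fit without control replicate 3, Cdc6 and Cdt1 were higher in the KO clone than in the parental cells (adjusted p = 0.0271 and 0.0265), and Cdt1 was higher in the control clone than in parental cells (adjusted p = 0.0394).

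In the synthesis group the sliding clamp and polymerase alpha were lowest in the control clone. Pola1 (chrX:93304767-93632155) was at 110, 106 and 111 CPM in the KO clone, 62.0, 75.4 and 43.2 in the control clone and 102, 92.8 and 87.0 in the parental cells. The control libraries were the lowest 3 and the KO libraries the highest 3. The KO clone was 0.86 above the control clone on the log2 scale (SE 0.17, adjusted p = 0.00297) and the control clone had -0.64 relative to parental cells (SE 0.17, adjusted p = 0.0244). The second call was lost when only these groups entered the fit (adjusted p = 0.0769), and without control replicate 1 or parental replicate 1 or 2 (adjusted p = 0.0588 to 0.0824). These differences were 0.67 and -0.45 without control replicate 3. Pcna, the clamp, was at 477, 480 and 489 CPM in the KO clone, 309, 341 and 223 in the control clone and 411, 414 and 383 in the parental cells. Its groups did not overlap, and its log2 fold change relative to the control clone was 0.73 (SE 0.13, adjusted p = 0.00211), and 0.57 without control replicate 3. Relative to parental cells it was 0.26 (adjusted p = 0.164), which was called without control replicate 3 (adjusted p = 0.0073). The clamp loader Rfc3 (0.66, and 0.49 without control replicate 3) and the large reductase subunit Rrm1 (0.53, and 0.33) were also called higher in the KO clone than in the control clone. The Rrm1 call was lost without control replicate 1 or any 1 of the KO replicates (adjusted p = 0.0619 to 0.086). Tyms and Prim1 were not called in any comparison.

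Rrm2 went against its group. It was at 229, 251 and 230 CPM in the KO clone, 383, 521 and 378 in the control clone and 360, 355 and 390 in the parental cells. The KO libraries lay far below all others, and control replicate 3 was level with control replicate 1. In the KO clone the log2 fold change from the control clone was -0.85 (SE 0.12, adjusted p = 0.000546; -0.93 without control replicate 3) and from the parental cells -0.64 (SE 0.12, adjusted p = 0.00386), and both calls were kept in every alternative run. Its partner subunit Rrm1 was at 342, 375 and 338 CPM in the KO clone and 339, 334 and 318 in the parental cells (log2 fold change 0.09, adjusted p = 0.73). Rrm2 lies at chr12:24708241-24714146, and all tested genes of chromosome 12 had medians of -0.25 and 0.02 in the 2 KO comparisons.

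**Figure D3:**
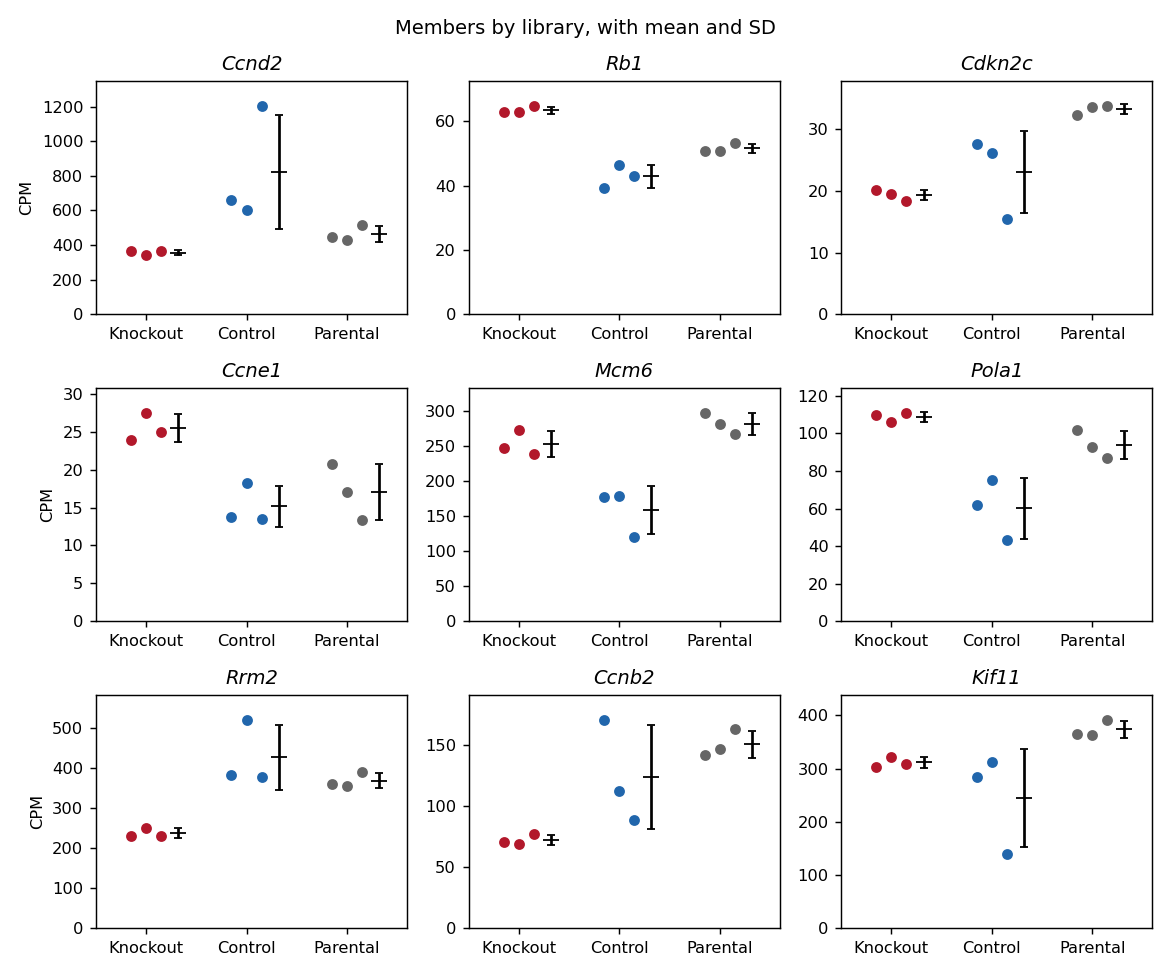
CPM (vertical axis, from 0) of the members given with full statistics, 1 panel per gene and 1 point per library, with each group's mean and SD beside its points. In the Mcm6 panel the control clone (120 to 179) lies below the KO clone (239 to 274) and the parental cells (267 to 298), and in the Rrm2 and Ccnb2 panels the KO clone is lowest.

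Ccnb2 was, with all 9 libraries, the G2/M member with the largest difference in both KO comparisons. It was at 70.7, 68.5 and 76.7 CPM in the KO clone, 171, 112 and 88.8 in the control clone and 142, 147 and 163 in the parental cells. No KO library reached any other library. Its log2 fold change in the KO clone was -0.78 from the control clone (SE 0.20, adjusted p = 0.0111), and -1.07 from the parental cells (SE 0.20, adjusted p = 0.00358). Leaving out 1 library at a time, the first value ran from -0.98 (without control replicate 3) to -0.48 (without control replicate 1), with adjusted p up to 0.0472. Without control replicate 3 Cenpa had the larger difference from the control clone, at -0.99. Ccnb2 (chr9:70407692-70421547) lies on the chromosome with the lowest median in the KO clone of all autosomes and X, which was -0.53 in both KO comparisons with 53.5% and 54.3% of its genes called lower. The part of the chromosome in the Ccnb2 difference was not tested. Ccnb1, the other B-type cyclin of the set, was at 282, 263 and 276 CPM in the KO clone and 240, 251 and 276 in the parental cells, and was not called in any comparison.

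With all 9 libraries, Kif11 had the largest G2/M difference of the control clone from the parental cells, at 284, 312 and 140 CPM against 365, 364 and 392, with 303, 322 and 309 in the KO clone. The value of -0.61 (SE 0.23, adjusted p = 0.0951) was not called. It was -0.33 without control replicate 3 and was called in that fit (adjusted p = 0.00789), as it was without control replicate 2 (-0.82, adjusted p = 0.0234). Cenpa, the centromeric histone, was lower in the KO clone than in the control clone (77.5, 76.4 and 80.4 against 157, 152 and 81.2 CPM, log2 fold change -0.74, adjusted p = 0.0178). This call was lost without control replicate 1 or any 1 of the KO replicates (adjusted p = 0.0506 to 0.0718). Its level in control replicate 3 was close to that of the KO libraries and of the parental cells (79.6, 88.0 and 92.9). Relative to parental cells the control clone value was 0.58 (adjusted p = 0.074, not called), and in the fit without control replicate 3 Cenpa (0.83, adjusted p = 0.000204), Cdc20 (0.72) and Kif20a (0.58) were higher in the control clone.

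Several G2/M members had control libraries at both ends of the 9. Cdc20, the activator of the anaphase-promoting complex, was at 198 and 185 CPM in control replicates 1 and 2, 82.6 in control replicate 3, 106, 116 and 120 in the KO clone and 107, 115 and 126 in the parental cells. Birc5 (survivin, of the chromosomal passenger complex) was at 153 and 174 CPM in the same libraries, against 68.9 in control replicate 3 and 99.0 to 112 in the other 6 libraries. For both genes control replicates 1 and 2 were above all other libraries and control replicate 3 below them. Without control replicate 3 the KO clone was lower than the control clone for Cdc20 (-0.75), Cenpa (-0.99) and Birc5 (-0.66), and also for Ccna2, Ccnb2, Cdk1, Aurka, Plk1, Kif20a, Cks2 and Tpx2. The proliferation marker Mki67 was at 818, 757 and 723 CPM in the KO clone, 665, 722 and 361 in the control clone and 803, 720 and 704 in the parental cells. It was not called by edgeR in any comparison with all 9 libraries, nor were Top2a, Foxm1, Ttk and Aurkb.

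**Figure D4:**
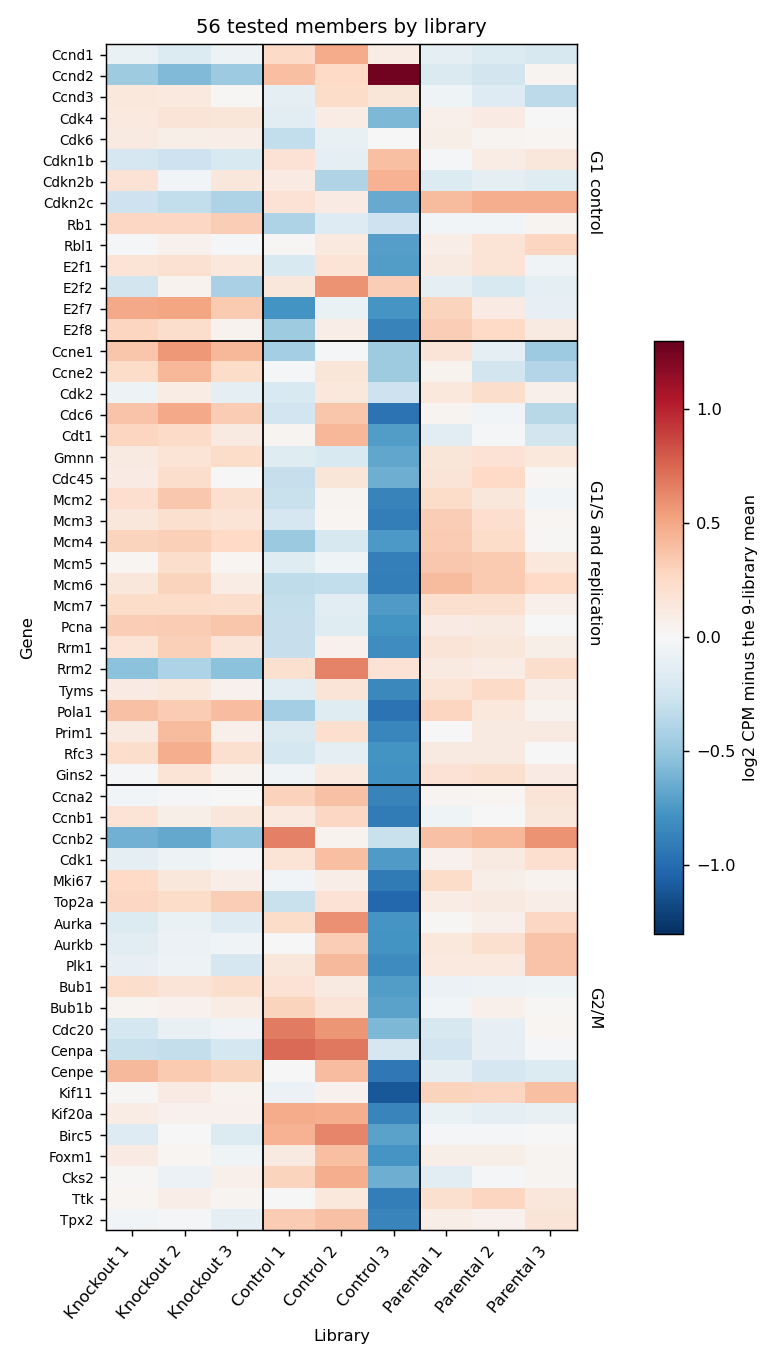
Log2 CPM of the 56 tested members, each centred on its mean over the 9 libraries (colour, blue low and red high), with genes in rows by role group and libraries in columns by group. The column of control replicate 3 is low over the G1/S and G2/M rows, and the 3 control columns are low in the Mcm4 and Mcm6 rows.

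Setting the role groups side by side in each library, the G1/S and replication level minus the G2/M level was 0.17, 0.28 and 0.15 in the KO clone, -0.44, -0.29 and 0.06 in the control clone and 0.13, 0.08 and -0.13 in the parental cells. Over these members the KO values were all above the control values and above the parental values. In the second list of cell cycle genes described next the same score was 0.10, 0.17 and 0.11 in the KO clone, -0.31, -0.24 and 0.14 in the control clone and 0.09, 0.08 and -0.12 in the parental cells, so control replicate 3 lay above KO replicates 1 and 3 there and the clones overlapped. Control replicate 3, low in both groups, had a difference near 0, whereas replicate 1 had a low G1/S level and replicates 1 and 2 both had high G2/M levels. No p is given for this score, since the members were listed with earlier results known.

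A second list of 115 cell cycle genes outside the 57, all of which were tested, gave 31 calls in the KO clone relative to the control clone, 25 higher and 6 lower, which is 27% beside 42.9% of all tested genes. Of its 41 G1/S and replication genes 17 were higher (41.5% beside 18.7%) and 1 lower (median 0.34), and of its 54 G2/M genes 3 were higher and 3 lower (5.56% each, median 0.04). Without control replicate 3 these were 17 higher and 3 lower (median 0.20), and 4 higher and 24 lower (44.4% beside 24.9%, median -0.20). That fit called more of the 115, mostly through the lower G2/M genes, and the share of the list called was then no longer below that of all genes. In the control clone relative to parental cells 8 of the 41 were lower (19.5% beside 11.0%), and 2 of the 54 G2/M genes were called, both lower. These groups alone gave 4 of the 41 lower (9.76% beside 5.99%). In the fit without control replicate 3 the 41 gave 11 lower (26.8% beside 15.9%) and 1 higher, and the 54 gave 21 higher (38.9% beside 14.9%) and 3 lower. Between the KO clone and the parental cells 13 of 115 were called, 4 higher and 9 lower, which is 11.3% beside 31.4%. That count was 41 without control replicate 3 (35.7% beside 42.7%) and 59 in a fit of these groups alone (51.3% beside 53.5%). Control replicate 3 was the lowest control library for 38 of these 41 and for 53 of these 54 genes.

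Spc24 and Cdkn2d, both on chromosome 9, were the genes of that list called with a log2 fold change beyond 1 in both KO comparisons. Spc24, a kinetochore subunit of the Ndc80 complex, was at 16.7, 15.9 and 15.8 CPM in the KO clone, 42.5, 51.5 and 19.8 in the control clone and 41.8, 44.9 and 45.7 in the parental cells (log2 fold changes -1.23, or -1.54 without control replicate 3, and -1.45). Cdkn2d (p19INK4d) was at 9.38, 11.6 and 8.58 CPM in the KO clone, 26.1, 28.0 and 20.7 in the control clone and 18.7, 21.3 and 20.2 in the parental cells (-1.34, or -1.46 without control replicate 3, and -1.03). The KO libraries were the lowest 3 for both. Cdkn1a (p21), the p53 target that inhibits cyclin E and Cdk2, was at 28.0, 34.9 and 29.0 CPM in the KO clone, 17.4, 12.3 and 21.6 in the control clone and 16.8, 15.9 and 16.1 in the parental cells. It was higher in the KO clone against both, by 0.84 (SE 0.18, and 1.04 without control replicate 3) and 0.91 (SE 0.18).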

How the data were processed

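Values are RSEM estimated counts (expected counts) per gene, deposited by the authors as whole numbers for 54838 Ensembl identifiers. Per the submitters' processing notes the tools were STAR 2.5.2, RSEM 1.3.0 and DESeq2 1.10.1 and the build GRCm38; the annotation release and strand setting are not given in the sources used here. RSEM divides reads that fit several genes by an estimate, so overlapping or near-identical genes are uncertain. Symbols and positions come from GENCODE M21 on GRCm38 (54809 identifiers matched), and promoters from a RefSeq table.

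Here all 9 libraries entered 1 edgeR 4.0.16 quasi-likelihood fit in R 4.3.3, with the group as the only term, TMM scaling and the filterByExpr filter (minimum count 10, minimum total 15), which kept at least 99.88% of each library's counts. Adjusted p-values (Benjamini-Hochberg) cover all tested genes. Libraries were checked for duplicates: replicates differed by at least 4.92 chi-square units per gene, more than counting noise, so none was treated as a copy of another.

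The members and lists were chosen with earlier results of these data known. Members given with full statistics were those called in the same direction in both KO comparisons, those called with a log2 fold change of at least 1 in size, and the largest of each role group per comparison; others named as examples were chosen after their values were seen. From the second list, the rule took genes called beyond 1 in the same direction in both KO comparisons, and Cdkn1a was added after its values were seen. Alternatives were DESeq2 1.42.0, limma 3.58.1 voom, other scaling and filters, fits of the compared groups alone, a replicate block and leaving out each library.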

Additional observations from a re-analysis of the deposited data

How the results depend on the processing

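For Zdhhc20 and the members given with full statistics, no value called in the main or the alternative fit changed sign between them. Some other members did. Ccna2 in control against parental was -0.04 with all 9 libraries and not called. Without control replicate 3 it was 0.26 and called by edgeR (adjusted p = 0.0155). Of 210 values that answer a comparison 189 stayed within a set limit. The limit was a fixed fold for counts and the pooled SD of the library levels for medians. It took in sign changes, since the G2/M median of KO against control was -0.06 with all 9 libraries and -0.35 to 0.15 with 1 library left out. Of 510 values for named genes, 463 kept their call or lack of one, 28 lost a call and 19 gained one. With only the compared groups in the fit, KO against control gave 15 members and 4348 genes called, KO against parental gave 28 members and 6840 genes called, and control against parental gave 3 and 1525. Leaving out 1 library at a time, members called ran from 14 to 34 (KO against control), 3 to 18 (KO against parental) and 3 to 29 (control against parental), and genes called from 4301 to 7204, 2515 to 5693 and 1472 to 4102. The G1/S and replication median ran from 0.32 to 0.70, 0.02 to 0.10 and -0.60 to -0.24 in these comparisons, and the G2/M median from -0.35 to 0.15, -0.10 to -0.05 and -0.25 to 0.21. Fewer libraries enter these fits; no other cause was tested. Scaling by total counts raised the share of lower calls among all control against parental calls from 51.3% to 61.2%. Replicate numbers are not said to pair libraries: correlations of deviations within a number were -0.223 to 0.344, over 0.1 in 3 of 9 pairs, and 3 of 9 libraries matched their own number best. A replicate block gave 25, 6 and 13 members called, beside 42%, 30% and 18.9% of all genes, and ended the call of Rb1 between control and parental (adjusted p = 0.06). Without the block that Rb1 value was -0.27 (edgeR adjusted p = 0.0387), and its call was also lost in 6 of the 9 fits that left out 1 library. At 16525869 counts or more per library, Cdkn1c was the member too low to test.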

Other observations

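Some genes of the second cell cycle list differed in ways that the role groups do not describe; they were chosen after their values were seen. E2f5, an E2F that works with the RB relatives p107 and p130 in repression, was at 21.4, 16.3 and 21.8 CPM in the KO clone, 18.2, 21.7 and 15.7 in the control clone and 9.78, 9.72 and 9.59 in the parental cells. Both clones lay above the parental cells without overlap, with log2 fold changes of 1.03 (adjusted p = 0.000997) and 0.93 (adjusted p = 0.00314) by edgeR. Chaf1b, a subunit of the chromatin assembly factor that deposits histones behind the fork, was at 60.6, 65.2 and 57.8 CPM in the KO clone, 38.7, 41.3 and 33.2 in the control clone and 86.1, 79.9 and 72.8 in the parental cells. Its 3 groups did not overlap, with the parental cells highest, and all 3 comparisons were called (log2 fold changes 0.70, -0.38 and -1.08).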
